A study of Homo sapiens with 12 samples.

Results

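Gene expression of KYSE410 was compared with that of KYSE150 in normoxia. Both are established human lines from esophageal squamous cell carcinoma, a cancer of the stratified lining of the gullet. The labels call each of them an esophageal cancer cell line with genotype WT. The 3 KYSE410 and the 3 KYSE150 libraries kept at 21% oxygen, with a time point of 0 in the labels, entered the comparison, out of 12 libraries in all. The design text gives both oxygen levels the same duration, so the time at 21% oxygen is not settled. The other 6 libraries came from the same lines at 0.5% oxygen for 48 h, and they were used only to see whether a difference between the lines was also measured there. Each value is an FPKM (fragments scaled to transcript length and to the fragments mapped in the library). A gene absent from the table of one line was counted as 0 in it, and 12927 of 34694 gene symbols were tested, those whose mean over the 6 libraries reached 1 FPKM. The genes just inside this limit were BMT2 (mean 1.00026 FPKM) and TMEM8B (1.00042 FPKM), and those just outside it were LOC100289361 (0.997422 FPKM) and MICA-AS1 (0.995926 FPKM).

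Stratified squamous epithelium is renewed by a basal layer that makes the keratin pair KRT5 and KRT14 under the transcription factor p63, encoded by TP63. Its cells hold to each other through E-cadherin, P-cadherin, desmosomes and tight junctions, and to the basement membrane through hemidesmosomes built on laminin-332. Carcinoma cells can lose these contacts and take on vimentin and other mesenchymal genes, which is known as epithelial-mesenchymal transition. Cancer-testis antigens are proteins normally made in germ cells that many carcinomas make again, most of them from genes on the X chromosome.

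The 6 columns summed to between 351501 and 413967 FPKM, with 23060 to 24667 genes above 0, and the sequencing depth of the libraries is unknown. Pearson's r of log2(FPKM + 1) over the tested genes was 0.981 to 0.995 between libraries of one line and 0.726 to 0.739 between lines. Replicate 2 of KYSE150 stood apart from its mates, since the SD of its log2 difference from them was 0.334 and 0.364, against 0.172 to 0.189 for the other pairs of one line. Its deviation ran with transcript length (Spearman's rho -0.627 across genes, which are not independent), and the long transcripts DSP, DST and FAT1 had their lowest KYSE150 values in it. The KYSE410 libraries carry the sample numbers 38 to 40 in their names and the KYSE150 libraries 50 to 52, so the line and the place in that numbering cannot be told apart. Nothing in the labels says that the replicates were separate cultures, and p-values then measure only the spread between these libraries, which may be technical. In RNA from whole cultures, fewer cells of a kind and less RNA per cell cannot be told apart.

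The lines differed in most of the expressed genes. With limma and Benjamini-Hochberg adjustment over all tested genes, 75.3% of the tested genes were called at an adjusted p under 0.05. In all, 4905 genes (37.9%) were higher in KYSE410 and 4827 (37.3%) were lower. The log2 difference, always KYSE410 minus KYSE150 on the log2(FPKM + 1) scale, was at least 1 in 1662 of the higher genes (12.9% of those tested) and in 2067 of the lower ones (16.0%). For 10281 genes (79.5%) the 2 groups of 3 libraries did not overlap. With so wide a background, a call by itself says little, and sizes of differences and levels per library are given for the genes below. Counts of calls in a list are to be read against the shares of 37.9% and 37.3%, and non-overlap against 79.5%. A level under 1 FPKM in one line against at least 10 FPKM in the other was found for 104 genes of KYSE410 and 264 genes of KYSE150.

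KYSE410 had the defining markers of squamous epithelium, and several of them were absent from KYSE150. Of the 13 squamous markers checked, KRT5, DSG3 and GRHL2 were listed at 0 in all 3 KYSE150 libraries, and KRT14, KRT6A, TP63, DSC3, PKP1 and CDH1 had means below 0.5 FPKM. KRT17, SFN and EPCAM were measured in both lines, and SOX2, an amplified lineage factor in many squamous carcinomas, was at or below 0.0891 FPKM in every library of both. Markers of other cell types were summed by list. The summed level of 10 fibroblast genes was 9.17 to 9.27 FPKM in KYSE150 and 2.80 to 3.63 FPKM in KYSE410. PDGFRA was at 0 in all 6 libraries, and of the 2 tested fibroblast genes 1 was higher and 1 lower in KYSE410. Among endothelial genes the junction protein ESAM led (20.5 to 24.8 FPKM in KYSE150), with PECAM1 at or below 0.0454 FPKM. The immune markers summed to 16.1 to 18.3 FPKM in KYSE150 and 30 to 33.1 FPKM in KYSE410, nearly all of it from the lysosomal protein CD68, with PTPRC at or below 0.0221 FPKM. The neuroendocrine markers summed to 16.7 to 17.5 against 8.18 to 9.66 FPKM, nearly all of it from the enolase ENO2, with CHGA at or below 0.127 FPKM. The summed level of columnar and intestinal genes was 10.8 to 11.7 FPKM in KYSE150 against 0.781 to 1.10 FPKM in KYSE410. Both of the 2 tested genes of this list were lower in KYSE410 (median log2 difference -1.78), while CDX2 was at or below 0.0121 FPKM in every library.

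Basal keratins were measured almost only in KYSE410, while KRT7 and KRT17 were higher in KYSE150. KRT5, the type II keratin of basal cells, was 171, 165 and 167 FPKM in the KYSE410 libraries and was listed at 0 in each KYSE150 library. Its partner KRT14 was 12.9, 12.2 and 14.3 FPKM in KYSE410 and 0.126, 0.0741 and 0.105 FPKM in KYSE150, a log2 difference of 3.68 ± 0.08 (SE, adjusted p = 2.51e-08). KRT15, another basal keratin, was 15.9, 15.0 and 17.9 FPKM against 0.0515, 0.0699 and 0.102 FPKM. All 3 basal keratins were high in every KYSE410 library and near or at 0 in every KYSE150 library. The stress keratins did not move as 1 group. KRT6A was 4.53 to 5.31 FPKM in KYSE410 and at most 0.0102 FPKM in KYSE150 (log2 difference 2.58). KRT17 was 197, 250 and 192 FPKM in KYSE150 and 66.3, 70.1 and 71.7 FPKM in KYSE410, so it was lower in KYSE410 by a log2 difference of -1.60 ± 0.11. KRT16 was also lower (-1.96). KRT14, KRT16 and KRT17 are closely similar genes, as are the KRT6 copies among themselves, and reads can be split within each of these groups.

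The simple-epithelium keratins KRT8 and KRT18 were abundant in both lines. KRT18 was 948, 923 and 1018 FPKM in KYSE410 and 308, 373 and 283 FPKM in KYSE150, and its partner KRT8 was 786, 803 and 836 against 264, 338 and 265 FPKM. Both were higher in KYSE410, by log2 differences of 1.59 and 1.49, although their exons overlap on opposite strands and the strand setting is not given in the sources used here. KRT7, a keratin of ducts and glands, went the other way, with 218, 282 and 225 FPKM in KYSE150 and 4.20, 5.31 and 5.13 FPKM in KYSE410 (log2 difference -5.36 ± 0.12, adjusted p = 2.70e-08). The groups did not overlap for any of the 3, nor for 79.5% of all tested genes. The only tested keratins of stratified differentiation, KRT10 and KRT80, were lower in KYSE410 (-0.90 and -0.62).

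**Figure D1:**
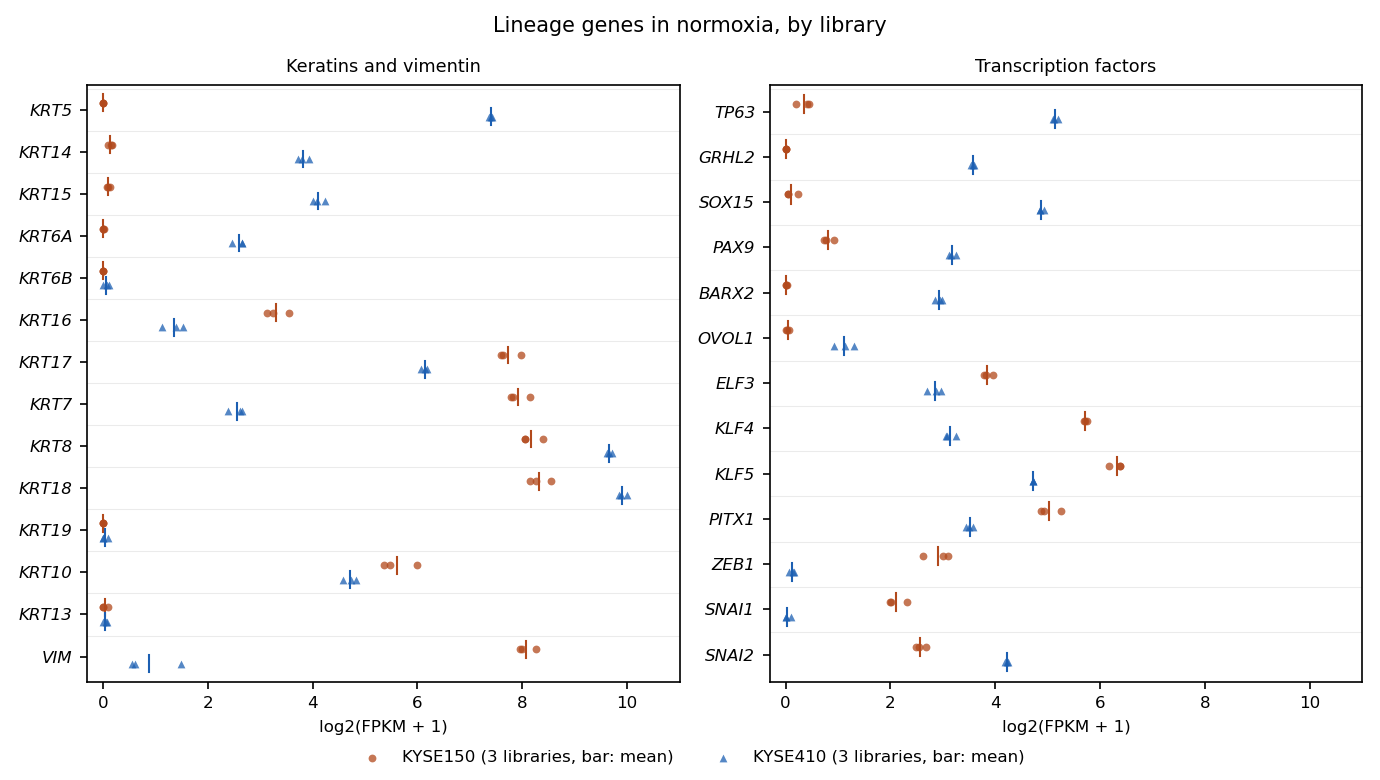
Expression on the log2(FPKM + 1) axis for keratins and vimentin (left) and for transcription factors (right), with 1 point per library (circles KYSE150, triangles KYSE410) and bars for the mean of 3. KRT5 sits at 165 to 171 FPKM in KYSE410 and at 0 in KYSE150, while KRT7 and VIM show the opposite order. The genes plotted were picked from the lists after their values were seen.

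Of 20 tested squamous transcription factors, 11 were higher (55%) and 9 lower (45%) in KYSE410, against 37.9% and 37.3% of all tested genes. Their median log2 difference was 0.42, against 0.01 over all tested genes. TP63 was 33.6, 33.3 and 35.7 FPKM in KYSE410 and 0.334, 0.155 and 0.361 FPKM in KYSE150, a log2 difference of 4.78 ± 0.09 (adjusted p = 1.26e-08). GRHL2, a grainyhead factor of epithelial cells, was 11, 10.6 and 11.1 FPKM in KYSE410 and was listed at 0 in KYSE150. SOX15, a SOX family factor of stratified epithelium, was 28.1, 29.6 and 27.8 against 0.178, 0.0383 and 0.0290 FPKM (4.77). Values of these 3 factors did not overlap between the lines, which was also so for 79.5% of all tested genes. Other factors of the same list were higher in KYSE150. KLF5, a regulator of proliferating epithelium, was 82.3, 71.5 and 82.6 FPKM there and 25.4, 25.3 and 25.4 FPKM in KYSE410 (log2 difference -1.59). Among factors picked after their values were seen, KLF4 was 50.5 to 52.9 against 7.33 to 8.54 FPKM (-2.59), and PITX1 was 28.4 to 37.1 against 9.90 to 11 FPKM (-1.51). ZNF750 was at most 0.229 FPKM in any library and was not tested.

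Genes that mark epithelial splicing and identity had the largest share of higher members among the lists with at least 10 tested members: 18 of 19 were higher in KYSE410, 1 was lower, and the median log2 difference was 2.85. ESRP1, a splicing regulator that sets the epithelial isoforms of many transcripts, was 57.4, 61.9 and 57.9 FPKM in KYSE410 and 0.128, 0.101 and 0.132 FPKM in KYSE150 (log2 difference 5.74). SPINT2, a membrane-bound inhibitor of serine proteases, was 152, 137 and 143 against 1.42, 1.63 and 1.35 FPKM (5.88). RAB25, a small GTPase of epithelial recycling endosomes, was 40.5, 44.3 and 41.4 against 0.0405, 0 and 0 FPKM (5.41). ESRP1 and RAB25 were nearly silent in all 3 KYSE150 libraries, and SPINT2 was low there. LAD1, which encodes the filament-linked protein ladinin-1, was 31.4, 29.5 and 30.1 FPKM in KYSE410 and was listed at 0 in KYSE150. The single lower member was MARVELD1 (-0.34).

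The promoters of KRT5, RAB25 and LAD1 are shown because these genes were silent or nearly silent in one line and expressed in the other. They were picked by hand from a larger set of such genes. Their boxes therefore say nothing of how often such genes hold one, and binding of a repressor was not tested. Each runs 5′ to 3′ over 250 bases before and 50 bases after the RefSeq transcription start (GRCh38.p14), with KRT5 at chr12:52520345-52520644 on the minus strand, RAB25 at chr1:156060910-156061209 on the plus strand and LAD1 at chr1:201399275-201399574 on the minus strand. Capitals mark CAGGTG and its reverse complement CACCTG, the E-box to which ZEB and SNAI repressors are known to bind.
KRT5: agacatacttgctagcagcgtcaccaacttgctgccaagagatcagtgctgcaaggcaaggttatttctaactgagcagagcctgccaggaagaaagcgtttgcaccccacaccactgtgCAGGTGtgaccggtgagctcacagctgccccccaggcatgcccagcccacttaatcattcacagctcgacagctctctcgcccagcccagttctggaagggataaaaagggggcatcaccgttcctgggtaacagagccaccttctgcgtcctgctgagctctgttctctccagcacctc
RAB25: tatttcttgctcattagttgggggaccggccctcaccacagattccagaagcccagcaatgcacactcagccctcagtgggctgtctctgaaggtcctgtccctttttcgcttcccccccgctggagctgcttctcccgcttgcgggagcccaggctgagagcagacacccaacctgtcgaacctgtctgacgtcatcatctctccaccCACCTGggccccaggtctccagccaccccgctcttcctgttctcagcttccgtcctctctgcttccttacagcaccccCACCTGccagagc
LAD1: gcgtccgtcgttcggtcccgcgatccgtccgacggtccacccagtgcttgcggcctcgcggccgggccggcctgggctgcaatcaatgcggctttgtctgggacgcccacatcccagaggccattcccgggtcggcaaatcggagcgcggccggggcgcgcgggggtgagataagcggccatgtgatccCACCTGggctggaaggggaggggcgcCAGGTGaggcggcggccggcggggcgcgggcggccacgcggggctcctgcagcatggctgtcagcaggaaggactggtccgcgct
KRT5 holds 1 such box, and RAB25 and LAD1 hold 2 each. The box was found in 20.6% of the 35116 promoters of the table, so it is common, and a match describes letters and not a bound site. Promoters were matched for 74.3% of the tested genes, under the 80% needed, so a comparison of motif shares between gene groups is void and was not made. CDH1, CDH3 and FOLR1 had no entry.

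The host transcript of microRNA 205, MIR205HG, was after KRT5 the gene with the highest mean in KYSE410 among those listed at 0 in all KYSE150 libraries, with 88.6, 96.5 and 91.2 FPKM. This microRNA is known in stratified epithelium for targeting ZEB1 and ZEB2. Its hairpin gene MIR205 was listed at 3.45, 3.40 and 1.88 FPKM in KYSE410 and had no row in the KYSE150 table, but it overlaps the host transcript on the same strand and the mature form was not measured. The mature sequence from RefSeq is given with its seed, bases 2 to 8, in capitals.
hsa-miR-205-5p: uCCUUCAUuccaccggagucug
ZEB1, one of its known targets and a repressor of CDH1, was 7.0, 5.13 and 7.59 FPKM in KYSE150 and 0.105, 0.0519 and 0.117 FPKM in KYSE410 (log2 difference -2.78).

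Late differentiation genes were mixed. Of 52 listed genes of the cornified envelope, 14 were tested, 9 were higher in KYSE410 (64.3%) and 5 lower (35.7%). The shares among all tested genes were 37.9% and 37.3%. KLK5, a protease of shedding squamous cells, was 44.7, 50.2 and 48.1 FPKM in KYSE410 and 0, 0.0997 and 0.0689 FPKM in KYSE150 (5.52). Its inhibitor SPINK5 had the reverse pattern, with 137, 152 and 154 FPKM in KYSE150 and 0.0675, 0.0778 and 0.0406 FPKM in KYSE410 (log2 difference -7.13 ± 0.07, adjusted p = 2.47e-09). Protease and inhibitor were thus each measured almost entirely in one line. CSTA, a cysteine protease inhibitor of the envelope, was 20.1 to 21.6 against 2.37 to 3.47 FPKM, and the scaffold proteins PPL and EVPL were higher by 1.43 and 0.90. Besides SPINK5, the lower members were PI3 (-1.74), CSTB (-1.16), ECM1 (-0.98) and CNFN (-0.71).

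HOX genes, which record position along the body axis, split by their place in the clusters. Of 20 tested, 8 were higher in KYSE410 (40%) and 12 lower (60%), against 37.9% and 37.3% of all tested genes. Of the 8 tested genes of paralog groups 1 to 5, 7 were higher, and of the 9 genes of groups 9 to 13, none was higher and 9 were lower. HOXC10 was 28.7, 32.4 and 30.3 FPKM in KYSE150 and 0.134, 0.277 and 0.131 FPKM in KYSE410 (-4.74). HOXB9 was 14.2, 14.7 and 15.4 FPKM against 0, 0.0113 and 0 FPKM (-3.97). On the anterior side, where the member was chosen after its values were seen, HOXB2 was 3.48 to 4.01 FPKM in KYSE410 and at most 0.106 FPKM in KYSE150 (2.15). The split by group was noticed in these data, and the exons of 15 of these 20 genes overlap those of a neighbouring gene or antisense transcript.

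The lines also differed in their cadherins. CDH1 (chr16:68737225-68835548), E-cadherin, was 83.9, 90.6 and 86.1 FPKM in KYSE410 and 0.432, 0.277 and 0.408 FPKM in KYSE150 (log2 difference 6.0 ± 0.08, adjusted p = 4.45e-09). CDH3, P-cadherin of basal cells, was 87.7, 103 and 102 FPKM against 0.166, 0.125 and 0.0860 FPKM (6.45 ± 0.09). In GRCh38 the genes lie next to each other on chromosome 16, 14.6 kb apart, and both were high in every KYSE410 library. CDH2, the N-cadherin of mesenchymal cells, was 2.21, 2.2 and 2.58 FPKM in KYSE150 and 0, 0 and 0.00824 FPKM in KYSE410 (-1.73). CDH13, a cadherin without a cytoplasmic tail, was 5.88, 4.81 and 7.02 FPKM in KYSE150 and was listed at 0 in KYSE410. Neither cadherin of KYSE150 came near the level of the E- and P-cadherin of KYSE410 on this per-length scale.

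The proteins that anchor cadherins were present in both lines. CTNNB1, β-catenin, did not pass the test (43.1 to 43.5 FPKM in KYSE410 and 44.7 to 50 FPKM in KYSE150), although it was lower by -0.15 (adjusted p = 0.0140) without replicate 2 of KYSE150. CTNNA1 was higher by 0.33 and CTNND1 by 1.75. AFDN, the nectin anchor afadin, was 31.9, 34.7 and 33.1 FPKM against 4.55, 2.73 and 4.47 FPKM (2.82). Nectins divided, with NECTIN1, NECTIN2 and NECTIN4 higher in KYSE410 (1.05 to 1.47) and NECTIN3 lower (-2.50). In all, 8 of the 13 tested cadherin, catenin and nectin genes were higher (61.5%), 4 lower (30.8%) and 1 not called, with a median of 1.05. All tested genes had shares of 37.9% higher and 37.3% lower.

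Among desmosome genes, 8 of 11 tested were higher in KYSE410 (72.7%), 2 lower (18.2%) and 1 not called (median 0.78). Over all tested genes 37.9% were higher and 37.3% lower. The differences were largest for squamous isoforms: DSG3 was 23.4, 26.9 and 25.5 FPKM in KYSE410 and was listed at 0 in KYSE150, and DSC3 was 15.4, 18.1 and 16.8 against 0.385, 0.222 and 0.467 FPKM (3.71). The plakophilins PKP1 and PKP2, which tie the plaque together, were higher by 3.44 and 3.43. The general isoform DSG2 was 45.7 to 50.1 against 19.6 to 32.5 FPKM (0.78), so KYSE150 had a desmosomal cadherin too. JUP, plakoglobin, was lower (-0.79), as was the p53 target PERP (-0.50). DSP, desmoplakin, was 41.8, 43.5 and 42.8 FPKM in KYSE410 and 55, 28.2 and 53.7 FPKM in KYSE150, where the middle value is the library that stands apart. With it DSP was not called (-0.03, adjusted p = 0.91), and without it DSP was lower in KYSE410 by -0.34 (adjusted p = 1.45e-04).

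Tight junction genes were higher in KYSE410 in 15 of 17 cases (88.2%), with 1 lower (5.88%), 1 not called and a median of 1.88. The shares of all tested genes were 37.9% higher and 37.3% lower. TJP1, the scaffold ZO-1, was 63.5, 67.0 and 65.6 against 8.45, 4.92 and 8.31 FPKM (3.04). OCLN, occludin, was 8.95, 9.63 and 9.66 against 0.336, 0.438 and 0.404 FPKM (2.90). MARVELD3, a relative of occludin, was higher by 3.42. CLDN1 was the exception, with 7.04, 7.15 and 7.80 FPKM in KYSE150 and 0.0218, 0.0392 and 0 FPKM in KYSE410 (-3.03), while CLDN4, chosen after its values were seen, was 55.8 to 61.2 against 7.07 to 10.6 FPKM (2.69). These claudins thus had opposite orders in the lines. Of 4 tested gap junction genes, GJA1 (4.15, 4.47 and 4.0 against 0.0120, 0 and 0 FPKM), GJB5 and GJC1 were higher in KYSE410.

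**Figure D2:**
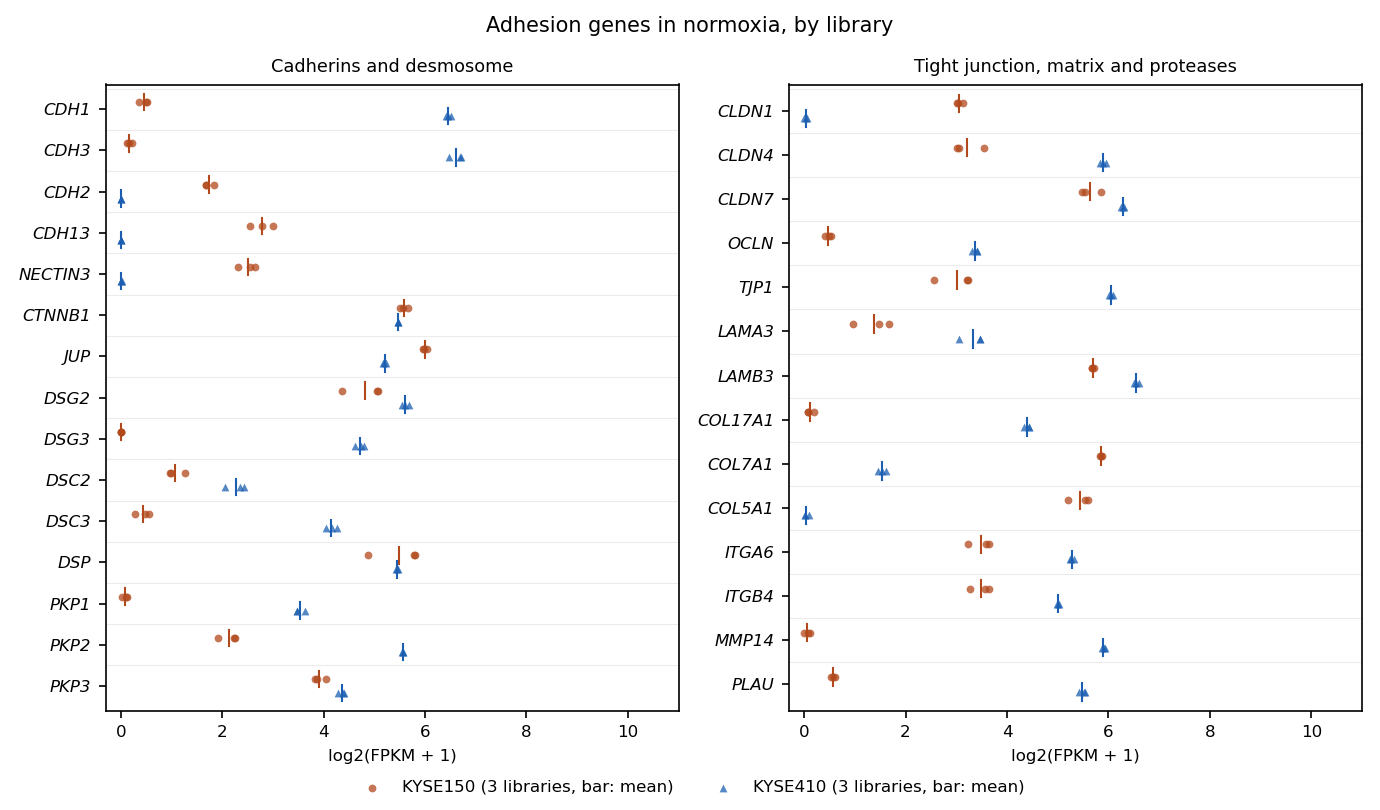
Expression on the log2(FPKM + 1) axis for cadherin and desmosome genes (left) and for tight junction, matrix and protease genes (right), with 1 point per library (circles KYSE150, triangles KYSE410) and bars for the mean of 3. CDH1 and CDH3 are at 83.9 to 103 FPKM in KYSE410 and below 0.5 FPKM in KYSE150, while CLDN1, COL7A1 and COL5A1 show the opposite order. The genes plotted were picked from the lists after their values were seen.

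The contacts with the basement membrane followed the same order, with exceptions. Of 10 hemidesmosome and laminin-332 genes, 7 were higher in KYSE410 (70%), 1 was lower (10%) and 2 were not called (median 1.65). Among all tested genes 37.9% were higher and 37.3% lower. LAMB3, the β3 chain of laminin-332, was 89.8 to 96.0 against 50.1 to 51.4 FPKM (0.86), and LAMA3, its α3 chain, was 7.32 to 10.1 against 0.961 to 2.21 FPKM (1.95). COL17A1, the transmembrane collagen of hemidesmosomes, was 19.1, 20.5 and 20.6 against 0.141, 0.0592 and 0.0563 FPKM (4.28). COL7A1, the anchoring fibril collagen, was the lower member, with 1.90, 2.08 and 1.73 FPKM in KYSE410 and 56.7, 55.8 and 57.4 FPKM in KYSE150 (-4.31 ± 0.07). ITGB4 and ITGA6, the hemidesmosomal integrin pair, were higher by 1.51 and 1.79. PLEC (adjusted p = 0.088) and CD151 (adjusted p = 0.33) were not called. PLEC was higher by 0.54 (adjusted p = 0.0438) without replicate 3 of KYSE150 and by 0.41 (adjusted p = 0.0283) with the replicate number as a block. Without replicate 2 of KYSE150, the library that stands apart, PLEC differed by only 0.18 and was not called (adjusted p = 0.0767). CD151 was higher by 0.26 (adjusted p = 0.00335) in that fit.

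Of 11 tested integrin subunits, 6 were higher (54.5%), 3 lower (27.3%) and 2 not called (median 0.80). All tested genes had shares of 37.9% higher and 37.3% lower. ITGA5, the fibronectin receptor subunit, was 8.42, 9.14 and 8.42 FPKM in KYSE410 and 29.1, 25.3 and 28.0 FPKM in KYSE150 (-1.56). ITGA1, a collagen receptor subunit, was lower by -2.23. ITGB8 and ITGA3 were higher by 1.38 and 1.09. ITGB1 (-0.27, adjusted p = 0.042) and ITGA2 (0.80, adjusted p = 0.022) lost their calls when single libraries were left out: for ITGB1 each library but replicate 2 of KYSE150 (adjusted p 0.0858 to 0.136), and for ITGA2 replicate 2 or 3 of KYSE410 (0.0612 and 0.0597). By count, matrix genes leaned to KYSE150: 15 of 26 tested laminins, collagens and matricellular genes were lower in KYSE410 (57.7%) and 9 higher (34.6%, median -1.30). Their summed level had the reverse order, with 645 to 683 FPKM in KYSE410 and 419 to 532 FPKM in KYSE150. COL5A1 was 45.2, 35.7 and 47.6 FPKM in KYSE150 and 0.0118, 0.0112 and 0.0764 FPKM in KYSE410 (-5.40). NID2 and FBN2 (11.6 to 19.0 and 16.6 to 35.5 FPKM in KYSE150) were listed at 0 in KYSE410. THBS1, a matricellular glycoprotein, was the largest exception, with 119, 108 and 126 against 4.40, 3.68 and 4.95 FPKM (4.48). FN1, chosen after its values were seen, was also higher in KYSE410 (1.54).

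Mesenchymal switch genes were divided between the lines: 7 of 18 tested were higher in KYSE410 (38.9%), 9 were lower (50%) and 2 were not called (median -0.35). Among all tested genes 37.9% were higher and 37.3% lower. VIM, the filament of mesenchymal cells, was 254, 307 and 248 FPKM in KYSE150 and 0.532, 0.459 and 1.79 FPKM in KYSE410 (log2 difference -7.19 ± 0.24). S100A4 was 49.3, 69.2 and 49.7 against 0.418, 0.901 and 0.787 FPKM (-5.06), and the forkhead factor FOXC2 was 12.7 to 13.2 against at most 0.0153 FPKM (-3.79). Of the genes chosen after their values were seen, SNAI1, TWIST2 and LOX were also lower (-2.07 to -2.93). TGFB2, by contrast, was 28.2, 31.7 and 29 FPKM in KYSE410 and 1.48, 1.24 and 1.36 FPKM in KYSE150 (3.70). SNAI2 (17.3 to 18.0 against 4.61 to 5.39 FPKM), the receptor kinase AXL (76.7 to 79.5 against 20.8 to 21.6 FPKM) and TGFBR2 (34.1 to 36.0 against 7.23 to 9.02 FPKM), picked in the same way, were higher in KYSE410 too. The line with E-cadherin therefore also had the higher transcript levels of SNAI2, AXL and TGFB2. Replicate 3 of KYSE410 had higher traces of some stromal genes than its mates, such as COL1A2 (0.574 FPKM, against 0 and 0.0193) and SPARC (0.679 FPKM, against 0.103 and 0.0859). The part of these traces in the VIM value of that library was not tested.

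Of 15 tested genes of matrix proteases, their inhibitors and the plasminogen system, 5 were higher (33.3%), 7 lower (46.7%) and 3 not called. All tested genes had shares of 37.9% higher and 37.3% lower. MMP14, the membrane-bound collagenase MT1-MMP, was 57.4, 59.7 and 59.3 FPKM in KYSE410 and 0.0887, 0 and 0.0502 FPKM in KYSE150 (5.84). PLAU, the urokinase, was 44.9, 41.6 and 45.3 against 0.448, 0.525 and 0.490 FPKM (4.92). SERPINB5, maspin, was higher by 4.08. The inhibitor TIMP4 was 19.2, 22.6 and 20.4 FPKM in KYSE150 and was listed at 0 in KYSE410.

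Cancer-testis antigens gave each line its own repertoire. Of 74 listed genes 23 were tested, of which 9 were higher in KYSE410 (39.1%) and 13 lower (56.5%), with a median of -1.94. Among all tested genes 37.9% were higher and 37.3% lower, so the higher share was near that of all genes. Of the 13 lower genes, 12 were listed at 0 or had no row in the KYSE410 table. The fitted values of such genes depend on the added 1, and 3 were lower when only genes that both tables list were fitted. MAGEA4 (chrX:151912509-151925170, GRCh38) was 156, 154 and 162 FPKM in KYSE410 and 0.0216, 0 and 0 FPKM in KYSE150 (log2 difference 7.30 ± 0.06, adjusted p = 2.08e-09). MAGEA1 was 45.0, 54 and 47.2 FPKM in KYSE150 and was listed at 0 in KYSE410. CT83 was 32.7, 33.3 and 28.5 FPKM in KYSE150 and GAGE2A was 31.8, 41.4 and 26.2 FPKM, and neither had a row in the KYSE410 table. MAGEA1 and MAGEA4, members of one X-linked family, thus had opposite patterns.

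The remaining antigens, which are all of the tested members, filled out these repertoires. KYSE410 had more MAGEA2 (27.9 to 31.9 against 0.140 to 0.191 FPKM), MAGEA2B (26.6 to 30.1 against 0.175 to 0.237 FPKM) and MAGEA12 (34.1 to 36.2 against 4.30 to 5.05 FPKM), and also more CSAG1, CSAG2 and CSAG3 (log2 differences 2.18 to 3.79). MAGEA3 was 64.3 to 70.5 against 46.7 to 55.6 FPKM (0.40) and MAGEA6 was 42.9 to 45.8 against 32.7 to 42.9 FPKM (0.28, adjusted p = 0.042), so both lines expressed this pair. The MAGEA6 call was lost without any 1 library other than replicate 2 of KYSE150 (adjusted p 0.0767 to 0.136). Values above 0 in KYSE150 alone, with 0 or no row in KYSE410, were found for PAGE1 (19.2 to 29.5 FPKM), CT45A10 (18.6 to 22.5 FPKM), CTAG2 (13.6 to 21.5 FPKM), CT55 (9.23 to 11.8 FPKM), XAGE2 (4.83 to 9.17 FPKM), GAGE12J (3.92 to 7.01 FPKM), GAGE1 (3.05 to 6.06 FPKM), MAGEA11 (3.83 to 4.25 FPKM) and PRAME (1.83 to 4.67 FPKM). ATAD2 was lower in KYSE410 (-1.42) and KIF2C was not called (0.02, adjusted p = 0.77), and both are cell-cycle or chromatin genes that dividing cells of many tissues express. Pairs such as MAGEA2 and MAGEA2B, MAGEA3 and MAGEA6, CSAG2 and CSAG3, and the GAGE copies are near-identical, and how reads were shared among them is not given in the sources used here. MAGEA4 overlaps its antisense transcript MAGEA4-AS1 (16.5 to 19.7 FPKM in KYSE410, 0 in KYSE150). Outside this list, MAGED2, a MAGE gene of most tissues, was 22.0 to 22.9 against 85.4 to 96.9 FPKM (-1.96), and MAGEF1 was not called (0.18, adjusted p = 0.13), but it was higher by 0.27 (adjusted p = 0.00955) without replicate 2 of KYSE150.

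Promoters of MAGEA4 and CT83, X-linked antigens with opposite patterns, are printed with every CG in capitals, since methylation of CG sites at such promoters is a known control of this class. They run 5′ to 3′ over the same window as above (RefSeq, GRCh38.p14), MAGEA4 at chrX:151912224-151912523 on the plus strand from the first of 5 starts listed, and CT83 at chrX:116462927-116463226 on the minus strand.
MAGEA4: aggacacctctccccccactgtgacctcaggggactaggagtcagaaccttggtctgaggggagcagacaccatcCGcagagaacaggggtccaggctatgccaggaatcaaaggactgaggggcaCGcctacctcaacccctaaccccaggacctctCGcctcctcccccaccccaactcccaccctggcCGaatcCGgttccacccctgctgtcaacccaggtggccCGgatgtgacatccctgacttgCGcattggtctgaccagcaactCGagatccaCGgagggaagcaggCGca
CT83: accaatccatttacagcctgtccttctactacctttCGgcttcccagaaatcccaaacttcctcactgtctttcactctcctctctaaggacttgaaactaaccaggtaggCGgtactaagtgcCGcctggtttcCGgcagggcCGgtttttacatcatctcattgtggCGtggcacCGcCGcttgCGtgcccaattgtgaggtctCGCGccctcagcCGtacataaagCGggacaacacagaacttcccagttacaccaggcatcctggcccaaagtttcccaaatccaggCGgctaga
The windows hold 10 and 14 CG dinucleotides, and the median over the promoters of the table is 14 (lower and upper quartiles 4 and 28). CG occurs in 96% of them, and methylation was not measured here.

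Surface antigens used as tumour targets were similarly divided: 21 of 43 tested were higher in KYSE410 (48.8%), 15 lower (34.9%) and 7 not called (median 0.31). Over all tested genes the shares were 37.9% and 37.3%. FOLR1 (chr11:72189558-72196323), folate receptor alpha, was 1109, 1301 and 1062 FPKM in KYSE150 and 0.0663, 0.195 and 0.200 FPKM in KYSE410 (log2 difference -9.97 ± 0.10, adjusted p = 2.47e-09). MSLN, mesothelin, was 88.5, 113 and 94.0 against 0, 0.0311 and 0.0143 FPKM (-6.61), and the mucin MUC13 was 147, 142 and 145 FPKM in KYSE150 and was listed at 0 in KYSE410. These 3 are better known from glandular than from squamous tumours. KYSE410 was high in F3, the tissue factor that starts coagulation, with 354, 362 and 399 against 5.26, 4.54 and 4.60 FPKM (6.01). EPCAM was 96.6, 100.1 and 98.2 against 4.11, 4.91 and 4.47 FPKM (4.18). CD274, which encodes PD-L1 and was picked after its values were seen, was 33.0 to 37.7 against 0.0993 to 0.208 FPKM (5.0). No library of one line reached the range of the other for any of these 6 genes, as held for 79.5% of all tested genes.

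**Figure D3:**
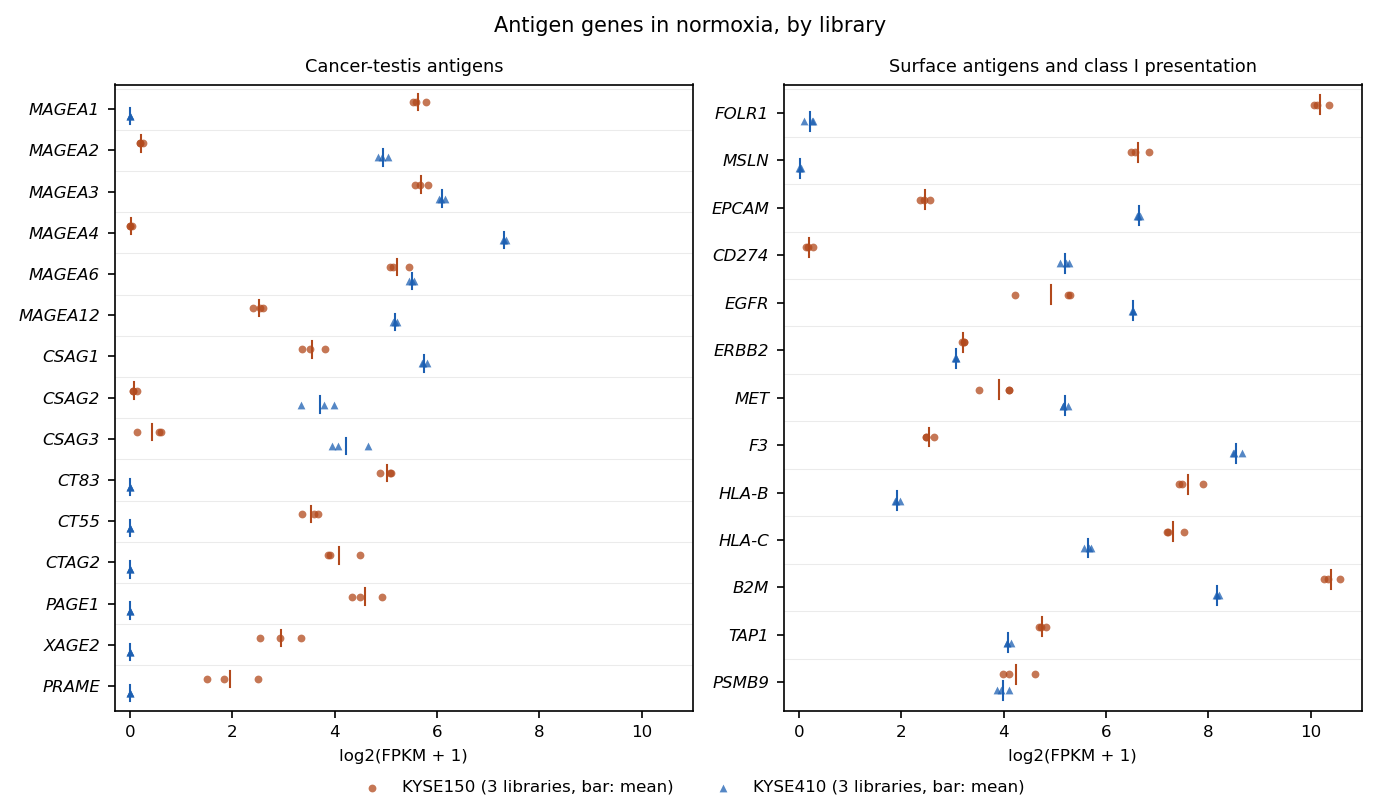
Expression on the log2(FPKM + 1) axis for cancer-testis antigens (left) and for surface antigens and class I presentation genes (right), with 1 point per library (circles KYSE150, triangles KYSE410) and bars for the mean of 3. MAGEA1, CT83 and FOLR1 are high in KYSE150 only, MAGEA4, CD274 and F3 in KYSE410, and MAGEA3 and MAGEA6 in both. The genes plotted were picked from the lists after their values were seen.

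Transcripts of antigen presentation on MHC class I were more often lower than higher in KYSE410. Of 27 tested genes 15 were lower (55.6%), 6 higher (22.2%) and 6 not called (median -0.37). Over all tested genes the shares were 37.3% lower and 37.9% higher. HLA-B was 2.93, 2.72 and 2.68 FPKM in KYSE410 and 170, 237 and 178 FPKM in KYSE150 (log2 difference -5.68 ± 0.13). B2M, the light chain shared by all class I molecules, was 282, 294 and 285 against 1285, 1526 and 1224 FPKM (-2.22). HLA-C, chosen after its values were seen, was 46.6 to 50.9 against 146 to 183 FPKM (-1.67). HLA-E, PSME1 and PSME2, chosen in the same way, were higher in KYSE410 (0.92, 1.09 and 1.20). HLA-B and HLA-C share annotated exon bases, and reads of HLA genes are matched to 1 reference allele, which was not tested as a part of these values. The stress ligands of natural killer cells MICB and ULBP1 were lower too (-2.54 and -2.72).

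Interferon-stimulated genes did not move as 1 group, with 17 of 34 tested higher (50%), 13 lower (38.2%) and 4 not called (median 0.15). The shares among all tested genes were 37.9% and 37.3%. BST2, tetherin, was 82.3, 110 and 83.2 FPKM in KYSE150 and 0.361, 0.300 and 0.332 FPKM in KYSE410 (-6.11), and OAS1 was lower by -2.51. UBE2L6, the conjugating enzyme for ISG15, was 27.3, 27.4 and 26.3 FPKM in KYSE410 and 0, 0.0619 and 0 FPKM in KYSE150 (4.78), and SAMD9 was higher by 2.82. BST2 and UBE2L6 were thus each near 0 in a different line.

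Several inflammatory cytokines and growth factors were much higher in KYSE410. Of 15 tested genes of the interleukin-1 family, chemokines and related cytokines, 9 were higher (60%), 5 lower (33.3%) and 1 not called (median 0.84). Over all tested genes the shares were 37.9% and 37.3%. IL1A was 176, 131 and 190 FPKM against 0.0440, 0.350 and 0.255 FPKM (7.09 ± 0.16). IL1B was 42.3, 39 and 45.6 against 0, 0.0226 and 0.0144 FPKM (5.42). IL6 was 110, 99.8 and 127 against 3.31, 3.42 and 3.16 FPKM (4.71), and the neutrophil chemokine CXCL8 was higher by 2.87. The 4 tested ligands of the EGF receptor family were also higher: NRG1 was 133, 137 and 130 against 1.65, 1.67 and 1.02 FPKM (5.79), AREG was 82.2, 80.0 and 94.3 against 2.13, 2.80 and 2.14 FPKM (4.69), and TGFA and HBEGF were higher by 3.97 and 3.36. The receptor EGFR was 89.7, 90.6 and 91.5 FPKM in KYSE410 and 37.3, 17.7 and 38 FPKM in KYSE150 (1.60). ERBB2 was 7.28 to 7.43 against 8.07 to 8.38 FPKM and was not called (-0.14, adjusted p = 0.073), but it was lower by -0.13 (adjusted p = 0.0381) without replicate 2 of KYSE150. Of these 10 tested ligands, receptors and regulators 6 were higher and 0 lower, while without that replicate 2 were lower, ERBB2 and LRIG3.

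Among 27 tested genes known as drivers or copy-number targets of esophageal carcinoma, 13 were higher (48.1%), 6 lower (22.2%) and 8 not called (median 0.29). The shares among all tested genes were 37.9% and 37.3%. Without replicate 2 of KYSE150, 10 of the listed genes were lower. CCND1, the most often amplified cyclin gene of this tumour type, was 52.5, 54.2 and 53.2 against 43.1, 38.7 and 43.0 FPKM (0.35). CCNE1 was 9.39, 10.8 and 9.89 FPKM in KYSE150 and 0.809, 1.09 and 0.528 FPKM in KYSE410 (-2.62), so the G1 cyclins were not shifted alike. SMAD4, the common mediator of TGF-β signals, was lower (-1.49), and the atypical cadherin FAT1 was higher (1.61).

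Outside the lists, genes were ranked by size of difference among genes with a value above 0 in at least 1 library of each line, which leaves out those listed at 0 in all 3 libraries of a line. UBB (chr17:16380798-16382745), a polyubiquitin gene, was 436, 518 and 418 FPKM in KYSE150 and 0, 0.0851 and 0.206 FPKM in KYSE410 (log2 difference -8.71 ± 0.11, adjusted p = 4.45e-09). RPS27A, a ribosomal gene that also encodes ubiquitin and was looked up after this value was seen, was 448 to 508 against 864 to 1288 FPKM (-1.03). EEF1A2, a tissue-restricted elongation factor, was 304 to 439 FPKM in KYSE150 and at most 0.0491 FPKM in KYSE410 (-8.40). CGA, the shared subunit of glycoprotein hormones, was 224 to 295 against at most 0.102 FPKM (-7.90), and CPS1, the entry enzyme of the urea cycle, was 162 to 225 against 0.0859 to 0.101 FPKM (-7.52). S100P, CRIP1, RNF182, SMOC1 and GDA were also lower (-6.71 to -7.80). CALB2, the calcium-binding protein calretinin, was 69.0 to 73.5 against 0.0684 to 0.17 FPKM (6.01), and the long non-coding RNAs LNCAROD and SFTA1P were higher by 6.09 and 6.0.

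Genes listed at 0 in all libraries of one line were led by C4BPB in KYSE150 (140, 162 and 148 FPKM), which encodes a chain of the complement regulator C4BP. After MUC13 and IGFBP4 (98.4 to 138 FPKM) came MARCOL, with 130, 38.2 and 147 FPKM, where the low value is again replicate 2. MARCOL and SPINK13 (81.7 to 99.0 FPKM) lie near SPINK5 on chromosome 5, with gaps of 84.4 kb from SPINK5 to MARCOL and 24.6 kb from MARCOL to SPINK13, and all 3 were high in KYSE150. PRSS21, HTATIP2, USH1C and LINC00473 had 63.1 to 106 FPKM in KYSE150. In KYSE410 the genes after MIR205HG and KRT5 were TSTD1 (71.0 to 77.6 FPKM), RAB38 (34.9 to 36.2 FPKM), LAD1, DSG3, BNC1 (22.0 to 25.4 FPKM), CBLC, MAGEA4-AS1 and FEZ1. BNC1 encodes basonuclin 1, a zinc finger protein of basal keratinocytes.

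**Figure D4:**
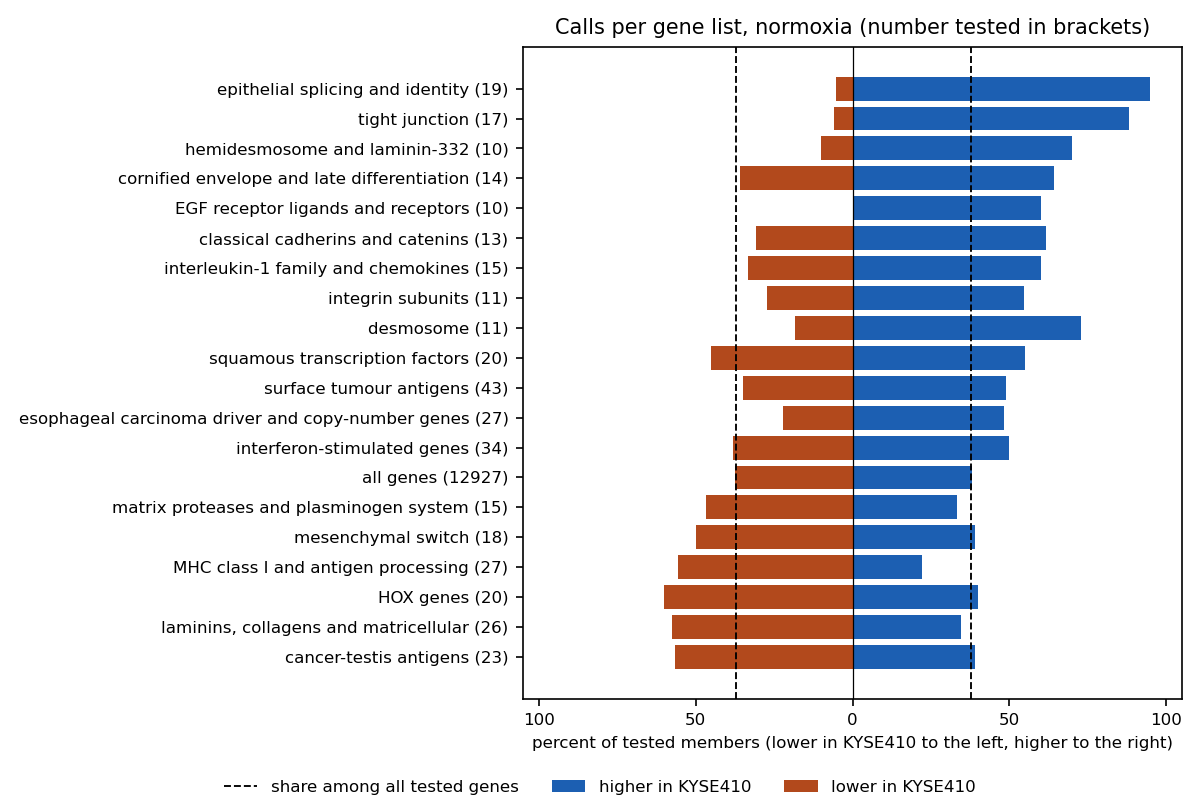
Percent of tested members called higher (right) or lower (left) in KYSE410 for each list with at least 10 tested members, ordered by median difference, with dashed lines at the shares among all tested genes (37.9% and 37.3%). Epithelial identity and tight junction genes reach furthest to the right, and matrix and cancer-testis genes are at the bottom.

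The difference between the lines was also measured in the 6 hypoxia libraries, none of which enters the normoxia fit. There 85.3% of 12575 tested genes were called. Of 9069 normoxia calls tested in hypoxia, 6852 (75.6%) were called in the same direction and 1110 (12.2%) in the opposite one. For calls of at least 1 on the log2 scale, 3135 of 3361 (93.3%) had the same direction and 89 (2.65%) the opposite. CDH1 differed by 5.44, CDH3 by 6.58, MAGEA4 by 7.63, VIM by -6.84, FOLR1 by -9.94 and HLA-B by -5.31 in hypoxia. In the lists, 21 of 23 tested cancer-testis genes, 31 of 43 surface antigens and 23 of 26 matrix genes were called in the same direction at both oxygen levels. The same held for 16 of 20 squamous transcription factors and 16 of 18 mesenchymal switch genes, and 0 members of these lists had opposite calls. Opposite calls were found for 4 of 27 class I genes (15 in the same direction). They were also found for 3 of 14 envelope genes (8) and 3 of 27 driver genes (15), among other lists. In a joint fit of the 12 libraries some genes differed between the 2 oxygen levels. The difference of KRT15 was 7.25 in hypoxia, larger by 3.24 (adjusted p of the interaction 3.79e-09), and that of IL1A was 3.89, smaller (change -3.20, adjusted p = 6.22e-08). HBEGF, higher in KYSE410 in normoxia, was 1.67 ± 0.28 against 1.98 ± 0.30 FPKM (SD, n = 3 each) in hypoxia and was not called there by limma (-0.16, adjusted p = 0.16).

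**Figure D5:**
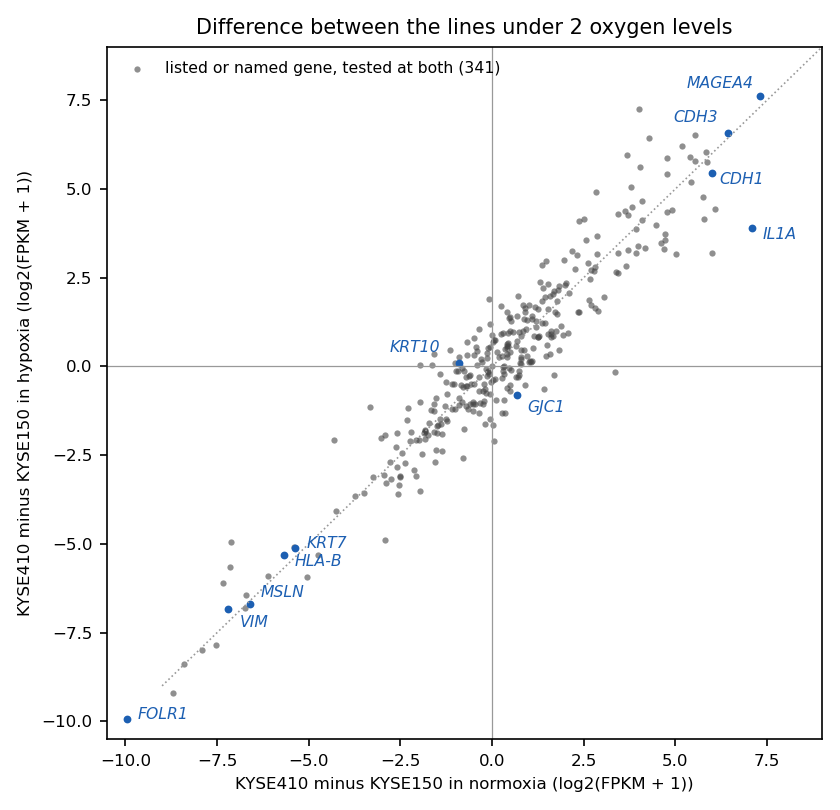
The log2(FPKM + 1) difference between the lines in hypoxia against that in normoxia, with 1 point for each of 341 listed or named genes that were tested at both oxygen levels and were not at 0 in all libraries of a line. The dotted line marks equal differences, and points with large differences, such as CDH1, MAGEA4, VIM and FOLR1, lie near it while IL1A lies below it.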

How the data were processed

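RNA of whole cultures was sequenced and the authors deposited FPKM per gene symbol, in 1 table for each line. Per the submitters' processing notes the tools were bcl2fastq 2.20, fastp 0.22.0 and HISAT2 2.2.1, with build hg38. For the quantifier, its annotation and its strand setting, versions and options were not given in the sources used here. Sequencing depth is unknown, no whole-read steps were found in the low values, and the precision rests on 3 libraries per group. The tables hold 30703 symbols for KYSE150 and 30106 for KYSE410, with 26115 in both, and a symbol absent from one was counted as 0. Of the tested genes, 207 had no row for KYSE410 and 50 none for KYSE150.

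Values were taken as log2(FPKM + 1), which understates the change of low genes, and genes averaging 1 FPKM or more were fitted with limma 3.58.1 (R 4.3.3, trend, threshold 0.05 after Benjamini-Hochberg adjustment). A second fit used the hypoxia libraries and another one all 12 libraries with an interaction of line and oxygen. The fit was tested on simulated data. Python 3.11.15 with pandas 2.3.3 and matplotlib 3.10.9 made the summaries and plots. Medians of lists include genes at 0 in one line at their fitted values, which are no bounds.

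The members and lists were chosen with earlier results of these data known. Genes were named by rule: preset markers, the 12 largest differences in each direction (among called genes whose groups did not overlap, with 5 FPKM or more on average in the higher line and a value above 0 in at least 1 library of each line), the 10 most abundant genes of each line at 0 in the other, and up to 4 leading members of each list or all members of short lists. The rule named 167 genes and 68 were added after values were seen. Some genes are not reported here. Alternatives covered scaling, the added value, filters, the replicate block, length and GC content, library weights, a joint fit, the threshold and leaving out each library.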

Additional observations from a re-analysis of the deposited data

Results flagged for a closer look

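For 11 of the named genes the difference between the lines was called in opposite directions at the 2 oxygen levels, and the change of the difference was itself called in the limma fit of all 12 libraries. These comparisons rest on 3 libraries in each of 4 groups, and the hypoxia and normoxia libraries of a line differ in their sample numbers, so oxygen and that numbering cannot be told apart. Each value below is the KYSE410 minus KYSE150 difference in hypoxia minus that in normoxia, on the log2(FPKM + 1) scale.

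Among keratins, KRT17 changed by 1.932 (from -1.60 to 0.34, adjusted p = 1.70e-07) and KRT10 by 1.004 (from -0.90 to 0.11, adjusted p = 5.01e-04). Of the envelope genes, the scaffold proteins PPL and EVPL changed by -2.067 (from 1.43 to -0.64) and -1.414 (from 0.90 to -0.51), and the protease inhibitor CSTB by 1.606 (from -1.16 to 0.45). Adhesion genes were the gap junction gene GJC1 (-1.472, from 0.68 to -0.80), the catenin CTNNA1 (-0.5538, from 0.33 to -0.22), the desmosome gene PERP (1.312, from -0.50 to 0.81), the integrin subunit ITGB1 (0.3795, from -0.27 to 0.11, adjusted p = 0.0109) and MARVELD1 (1.408, from -0.34 to 1.06). HOXB7 changed by 1.007 (from -0.68 to 0.32). The normoxia call of ITGB1 was lost when some single libraries were left out.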

How the results depend on the processing

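The counts of higher and lower genes stayed within 1.5 times of 4905 and 4827 under the alternatives, with 1 exception: a mean of at least 5 FPKM tested 8415 genes, of which 3090 were lower and 4169 of all calls had the same direction in hypoxia, since fewer genes were tested. Leaving out 1 library at a time gave 4344 to 5406 higher genes, 4433 to 5126 lower genes and 6401 to 7369 with the same direction in hypoxia. Without any filter 6471 genes were higher and 7224 lower, and scaling to a common column sum gave 5352 and 4310 with a median of 0.106.

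With the replicate number as a block 4726 genes were higher, 4666 lower and 6652 had the same direction in hypoxia. Deviations of samples with the same number correlated at -0.139, -0.155 and -0.0347, and those with different numbers at -0.0890 to 0.140. The deviations of the 3 libraries of a line sum to 0, so these correlations cannot decide whether the numbers pair the samples. Of the named genes' values under the alternatives, 4265 kept their direction and side of the threshold, 22 lost a call (ITGB1, MAGEA6 and ITGA2) and 30 gained one (CD151, CTNNB1, DSP, ERBB2, ERBB3, ITGB5, LRIG3, MAGEF1 and PLEC). None of the named genes was reversed among its calls. Of the list counts 899 stayed within 1.5 times and 51 did not. The cause of the gained and lost calls was not tested. Unknown depth limits what can be said of values near 0, and a symbol without a row in one table may have been 0 there or named otherwise.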

Other observations

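Differences between the lines were not spread evenly over the genome. Of 430 tested genes on the X chromosome 89 were higher in KYSE410 and 241 lower (median log2 difference -0.47), while of 177 on chromosome 18, 104 were higher and 42 lower (median 0.40). Of 345 genes on chromosome 20, 184 were higher (53.3%) and 84 lower (24.3%, median 0.38).

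In windows of 10 Mb with at least 20 tested genes, 224 in all, the medians lay mostly between -0.62 and 0.68 (lowest and highest twentieths left out). The lowest window was the first 10 Mb of the X chromosome, where 17 of 20 genes were lower in KYSE410 and 1 higher (median -1.61 in normoxia and -1.30 in hypoxia). On chromosome 5, 29 of 33 genes of the first 10 Mb were lower (-1.42 and -1.59), as were 17 of 20 genes between 40 and 50 Mb (-1.5 and -1.25). The highest window was on chromosome 10 between 10 and 20 Mb, where 25 of 33 genes were higher and 6 lower (0.89 and 0.80). The first 10 Mb of that chromosome had 22 of 29 genes higher (0.85 and 0.80). Copy number was not measured here.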
